A study of Mus musculus with 11 samples.

Results

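Messenger RNA of 8 genes that pattern the embryonic hindbrain was followed across the brains of 11 mouse embryos: Egr2, Gbx2, Epha4, Hoxa2, Hoxa3, Hoxb1, Hoxb2 and Hoxb3. They were taken by name from the 27179 genes in the count files, and all 8 were found and passed the filter on low counts. Every embryo was a C57BL/6 embryo of embryonic day 9.5, and every brain was cut just behind the otic vesicle, the forming inner ear. The affected females (4 embryos) and the control males (4 embryos) carried the labels p53-/- and Bim+/-. The control females (3 embryos) carried p53+/+ and Bim+/-, so the Bim label is shared by all groups. p53, encoded by Trp53, is a tumour suppressor, and Bim, encoded by Bcl2l11, is a pro-apoptotic protein. The labels name no defect in the affected females and give neither a litter nor a stage within the day. Affected and control females differ in p53 genotype as well as in being affected, affected females and control males differ in sex, and control males and control females differ in both sex and p53 genotype, so within each pair of groups these cannot be told apart. The affected state and the combination of female sex with p53-/- likewise coincide. Bcl2l11 RNA, given below, also set the control females apart from both other groups.

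At this stage the hindbrain is divided along its length into rhombomeres, segments with their own gene expression and their own cranial nerves. Egr2, also called Krox20, is a zinc-finger transcription factor made in rhombomeres r3 and r5, where it activates Epha4, Hoxa2 and Hoxb2. EphA4 is a receptor for ephrins that keeps cells of neighbouring segments apart. Hoxb1 marks rhombomere r4, Hoxa2 and Hoxb2 are expressed from the front rhombomeres backwards, and Hoxa3 and Hoxb3 are expressed from about r5 backwards. Gbx2 is a homeodomain factor of the anterior hindbrain that opposes Otx2 and so places the boundary with the midbrain. Hox genes lie in clusters, and their order on the chromosome matches the order of their front borders along the body axis.

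The sequence just before the transcription start is shown for 3 of the genes, because it holds short motifs of factors that belong to this network or act on it. Sequences and positions are from RefSeq on GRCm38.p6, whose coordinates are those of mm10, and are read 5′ to 3′ on the strand of the gene. Motif letters are in capitals. The first lies at chr10:67537619-67537868 on the plus strand, before 1 of the 5 Egr2 start sites listed; the second at chr6:52164832-52165081 on the minus strand; the third at chr11:96365508-96365751 on the plus strand.
Egr2: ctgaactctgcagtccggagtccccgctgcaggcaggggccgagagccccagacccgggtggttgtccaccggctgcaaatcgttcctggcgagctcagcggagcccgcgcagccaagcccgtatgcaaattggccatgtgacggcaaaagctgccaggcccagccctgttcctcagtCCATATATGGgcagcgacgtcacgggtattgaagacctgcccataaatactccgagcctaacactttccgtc
Hoxa2: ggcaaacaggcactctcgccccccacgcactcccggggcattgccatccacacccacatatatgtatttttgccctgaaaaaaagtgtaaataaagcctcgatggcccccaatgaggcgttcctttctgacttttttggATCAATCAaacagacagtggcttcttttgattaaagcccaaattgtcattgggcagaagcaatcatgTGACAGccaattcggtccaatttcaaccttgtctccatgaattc
Hoxb1: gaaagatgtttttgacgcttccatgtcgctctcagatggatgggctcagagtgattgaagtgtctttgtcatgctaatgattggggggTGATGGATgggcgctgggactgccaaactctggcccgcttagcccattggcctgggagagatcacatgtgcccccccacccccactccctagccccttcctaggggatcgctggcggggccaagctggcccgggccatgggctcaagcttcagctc

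The capitals before Egr2 are CCATATATGG, a CArG box, the motif of serum response factor, from 72 to 63 bases before the start. The window of another Egr2 start held a second CArG box, CCTTTTTTGG. CArG boxes were found in 1.47% of the 32851 windows of 250 bases before RefSeq starts. The capitals before Hoxb1 match TGATNNAT, the joint motif of Hox proteins and their partner Pbx, from 162 to 155 bases before the start. Before Hoxa2 the same motif lies on the opposite strand, where it reads ATCAATCA, from 111 to 104 bases before the start, and the Meis motif TGACAG lies from 44 to 39 bases before it. Over both strands, TGATNNAT was found in 7.68% and TGACAG in 15.9% of all windows, and no window of the 6 genes with an entry held the Egr motif GCGNGGGCG, found in 4.7% of all. Hoxa3 also held TGACAG, and 1 other Egr2 window held TGATNNAT; no motifs overlapped each other. A match describes letters only, and none of these motifs was tested for binding here.

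Library totals ranged from 8211942 to 11218682 counts. Levels are CPM, counts scaled by TMM to a common library size, a unit that does not correct for gene length. Trp53 itself stayed between 105 and 139 CPM in all groups, so whole-gene counts do not check the p53 labels. Ccng1, a direct p53 target, did separate the genotypes, with at most 33.5 CPM where the label is p53-/- and at least 74.7 CPM where it is p53+/+. Bcl2l11 averaged 76.7 CPM in the control females but 43.7 and 40.2 CPM in the affected females and control males, under the same Bim label. The log2 differences from control females were -0.81 and -0.93 (adjusted p = 0.00085 and 0.00022, edgeR). Whether the control females share the Bim genotype of the other groups was not tested, so it cannot be told apart from their other differences. The 9 neural progenitor genes summed to at least 915 CPM in every library. Control female 1 and control male 4 stood apart from their groups over many genes, and results are also given without them where that matters. Because whole brains were used, fewer cells of a type and less RNA per cell cannot be told apart.

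Among the 8 genes, Egr2 and Gbx2 were higher and Hoxb3 was lower in affected females than in control females, and Egr2 alone also passed the test against control males. Hoxa2, Hoxb2 and Hoxb1 were not called in any of the 3 comparisons by edgeR with all libraries. In affected against control females 3 of 8 genes passed edgeR's quasi-likelihood test at a threshold of 0.05 after Benjamini-Hochberg adjustment across 14542 genes, 2 of them higher and 1 lower. Among all tested genes 28.0% were called in that comparison, 13.0% higher and 15.0% lower, so the share among the 8 is close to the background. Against control males 1 of 8 was called, and it was higher; among all genes 20.2% were called there and 9.51% were called higher. Between the control groups 0 of 8 were called (edgeR) against 0.144% of all genes, while 2 of 8 and 891 of all genes had an unadjusted p under 0.05 there. DESeq2 also called 0 of 8 there, beside 0.296% of all genes, and limma voom 2 of 8, beside 10.8% of all genes. Those 2 were Egr2, higher in control males than in control females, and Hoxb3, lower in control males. The median log2 fold change of the 8 genes was 0.13 in both comparisons of affected females, beside -0.0049 and -0.02 for all genes.

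**Figure D1:**
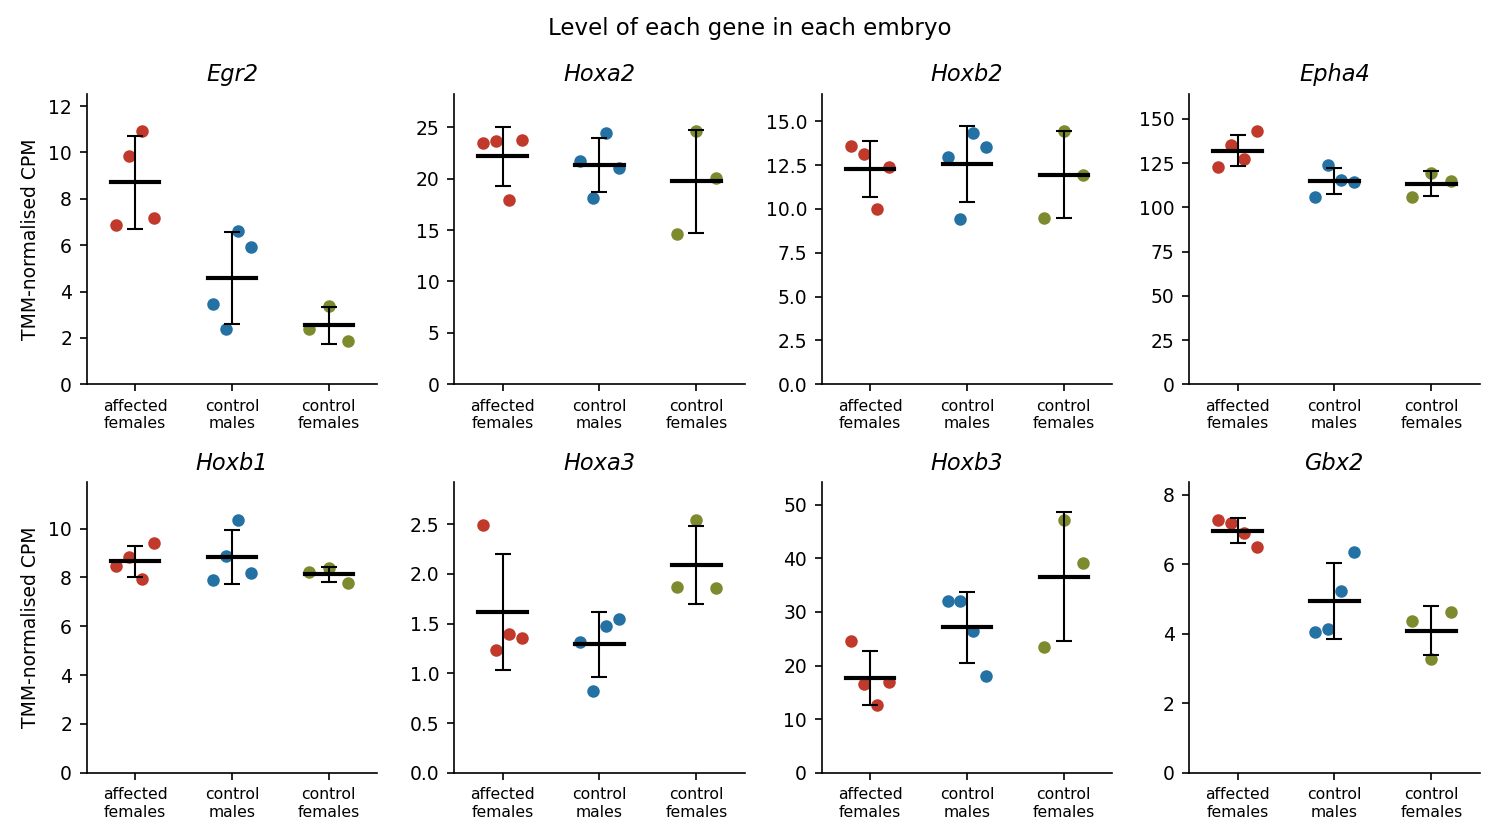
TMM-normalised CPM (vertical axes, from 0) of each gene in each embryo, with 1 point per embryo, a line at the group mean and bars of 1 SD, for 4 affected females, 4 control males and 3 control females. Every affected female lies above every control for Egr2 and Gbx2, while the groups overlap for Hoxa2, Hoxb2, Hoxb1 and Hoxb3.

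Egr2 (chromosome 10, 67534469 to 67542188), the segmentation factor of r3 and r5, changed most. Affected females 1 to 4 gave 6.88, 9.86, 10.9 and 7.17 CPM, from 69 to 117 counts. Control males 1 to 4 gave 3.48, 2.38, 6.61 and 5.91 CPM, and control females 1 to 3 gave 2.37, 3.39 and 1.85 CPM. No affected female overlapped a control, and among the controls males 3 and 4 were the highest, above all control females. The mean was 8.70 ± 1.99 CPM (SD, n = 4) in affected females and 2.54 ± 0.783 CPM (SD, n = 3) in control females, a 3.44-fold difference. On the log2 scale this was 1.78 (SE 0.33, adjusted p = 0.0035, edgeR), and it was called in 19 of 19 alternative analyses. Control males averaged 4.59 ± 1.99 CPM (SD, n = 4), and affected females exceeded them by 0.92 in log2 (SE 0.27, adjusted p = 0.0308, edgeR). That call was lost when any 1 of affected females 2, 3 and 4 or control males 1 and 2 was left out, with adjusted p between 0.0116 and 0.109 over the left-out libraries. Control males against control females gave 0.87 (SE 0.34, adjusted p = 0.773, edgeR). That difference was called in 1 of 19 alternatives, limma voom, at 1.10 (adjusted p = 0.0322).

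Egr2 is also an immediate-early gene in many cells, so 6 other genes of that kind were looked up after its values were seen. Egr1 lay between 1.5 and 3.58 CPM in 10 libraries and at 9.60 CPM in control female 1, where Egr2 was 2.37 CPM. Jun differed by -0.11 between affected and control females (adjusted p = 0.632, edgeR). Ier2, another such gene, was 0.60 higher (adjusted p = 0.0365, edgeR), the 1 of the 6 called against control females. Fosl2 (-0.25), Atf3 (0.39) and Dusp1 (0.12) had adjusted p of 0.381, 0.246 and 0.592 (edgeR).

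Epha4, Hoxa2 and Hoxb2, the genes that Egr2 is known to activate, were read next. Epha4 (chromosome 1, 77367182 to 77515107), the ephrin receptor, came close to the threshold. Affected females gave 123, 135, 127 and 143 CPM, control males 106, 124, 115 and 115 CPM, and control females 106, 120 and 115 CPM. The lowest affected female exceeded each control female but not control male 2. The difference was 0.22 on the log2 scale against control females (SE 0.086, adjusted p = 0.0644, edgeR) and 0.20 against control males (adjusted p = 0.0791, edgeR), so neither passed the threshold in these fits. Against control females it was called by DESeq2 (adjusted p = 0.0475), by limma voom (adjusted p = 0.0389) and by edgeR without control male 2 (adjusted p = 0.0468), and against control males by limma voom (adjusted p = 0.012). In all, 3 of the 8 genes had every affected female above every control female (Egr2, Gbx2 and Epha4), as 20.2% of all tested genes do, and 2 of 8 (Egr2 and Gbx2) had every affected female above every control male, as 10.1% do.

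Hoxa2 (chromosome 6, 52162417 to 52164831), the selector gene of the second pharyngeal arch and an anterior hindbrain Hox gene, read 23.4, 23.6, 17.9 and 23.7 CPM in affected females 1 to 4. Control males gave 21.7, 18.1, 24.5 and 21.0 CPM, and control females gave 14.6, 24.6 and 20 CPM. The groups overlapped, and control female 1 was the lowest library of all. The log2 difference was 0.16 against control females and 0.06 against control males. Hoxb2 (chromosome 11, 96351632 to 96354020), its paralog, read 13.6, 13.1, 9.97 and 12.4 CPM in affected females, with 13.0, 9.41, 14.3 and 13.5 CPM for control males and 9.47, 14.4 and 12.0 CPM for control females. Its log2 differences were 0.03 and -0.04. Neither gene was called in any of 19 alternative analyses of any comparison, and their small differences changed sign in some of them.

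Hoxa2 and Hoxb2 followed each other from embryo to embryo. Their ratio per length lay between 1.49 and 1.87 in all 11 libraries. The Pearson correlation of their log2 CPM over the 11 libraries was 0.902, and 0.929 with the group means removed; the libraries share their scaling, and this is a description. Of 11807 genes whose mean log2 CPM was 2 or more, Hoxa2 had the highest r with Hoxb2 of all, and Hoxb2 ranked second for Hoxa2 after Dph2 at 0.919.

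Hoxb1 (chromosome 11, 96365746 to 96368254), the marker of r4, differed little between groups. Affected females gave 8.47, 8.83, 7.92 and 9.40 CPM, control males 7.90, 8.89, 10.4 and 8.18 CPM, and control females 8.23, 8.37 and 7.79 CPM. All affected females lay within the range of the control males, as did the control females but for the lowest. The log2 difference of affected females was 0.09 from control females and -0.03 from control males, and neither passed edgeR's test. These values rest on 66 to 105 counts per library.

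The paralog group 3 genes among the 8, Hoxb3 and Hoxa3, gave unlike values. Hoxb3 (chromosome 11, 96307101 to 96347930), a gene of r5 and the tissue behind it, read 24.6, 16.6, 12.6 and 17.0 CPM in affected females 1 to 4. Control males gave 32.0, 32.1, 26.4 and 18.0 CPM, and control females gave 23.4, 47.2 and 39.2 CPM. Affected female 1 lay above control female 1 and control male 4, and the other affected females lay below every control. Hoxb3 was lower in affected than in control females, with a log2 difference of -1.06 (SE 0.24, adjusted p = 0.00838, edgeR), called in 19 of 19 alternatives with values from -1.35 to -0.83. Against control males it was -0.61 (SE 0.23, adjusted p = 0.0692, edgeR) and did not pass the threshold with all libraries. It passed without control female 1 and control male 4 (-0.77, adjusted p = 0.00145, edgeR), a setting chosen after seeing the data. Control male 4 had the lowest Hoxb3 of its group, so leaving it out widens this difference. The difference from control males was called in 8 of 19 alternatives, among them the setting without control female 1 and control male 4. Its adjusted p reached 0.201 with 1 library left out (edgeR). Control males against control females gave -0.44 (adjusted p = 0.831, edgeR). That difference was called in 1 of 19 alternatives, limma voom, at -0.65 (adjusted p = 0.0175).

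Hoxa3 (chromosome 6, 52169059 to 52213067), needed for the third arch and the ninth nerve, rested on 8 to 25 counts per library. Affected females gave 2.49, 1.23, 1.40 and 1.36 CPM, control males 1.32, 0.827, 1.48 and 1.54 CPM, and control females 1.87, 2.54 and 1.85 CPM. The control males all lay below the control females, as they did for 1 gene of the 8 and for 2.54% of all tested genes. That log2 difference was -0.68 (adjusted p = 0.801, edgeR), and affected females differed by -0.37 from control females and by 0.31 from control males, with no call. Hoxd3, the other gene of this paralog group in the files, gave -0.02 against control females (adjusted p = 0.974, edgeR) and 1.16 against control males (adjusted p = 0.0589, edgeR).

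In the Hoxb cluster Hoxb3, Hoxb2 and Hoxb1 follow each other with gaps of 3.7 and 11.7 kb, and only Hoxb3 was called. In RefSeq, Hoxb3 spans Hoxb4 and Mir10a, Hoxb2 and Hoxb3 overlap the RNA Hoxb3os, and Hoxa3 spans Hoxa4, Hoxa5 and Hoxa6. No source used here gives the strand setting of the counting, so reads of overlapping genes may have been shared. Within a library, Hoxb3 relative to Hoxa2 per length lay between 0.318 and 0.475 in affected females, between 0.387 and 0.800 in control males and between 0.726 and 0.885 in control females. The affected and control females did not overlap in this ratio, although they overlapped in Hoxb3 itself. Control female 1 had less Hoxb3 than affected female 1 (23.4 against 24.6 CPM) but also the lowest Hoxa2 of all libraries (14.6 CPM), which raises its ratio. The share of other gene pairs that separate in this way was not computed.

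Gbx2 (chromosome 1, 89927962 to 89931176), the gene at the front edge of the hindbrain, read 7.28, 7.19, 6.90 and 6.49 CPM in affected females 1 to 4. Control males gave 4.04, 4.14, 5.23 and 6.36 CPM, and control females gave 4.36, 3.29 and 4.64 CPM. All affected females were above all controls, control male 4 coming closest. The log2 fold change was 0.76 against control females (SE 0.20, adjusted p = 0.0139, edgeR), and it lost its call without control female 2 (adjusted p = 0.072). Against control males it was 0.49 (SE 0.18, adjusted p = 0.0594, edgeR) and did not pass the threshold. Without control female 1 and control male 4, a setting chosen after seeing the data, it was 0.64 (adjusted p = 0.00782, edgeR). Leaving out control male 4, the highest of its group, widens this difference. The difference from control males was called in 3 of 19 alternatives, among them the setting without control female 1 and control male 4. Its adjusted p reached 0.174 with 1 library left out (edgeR).

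**Figure D2:**
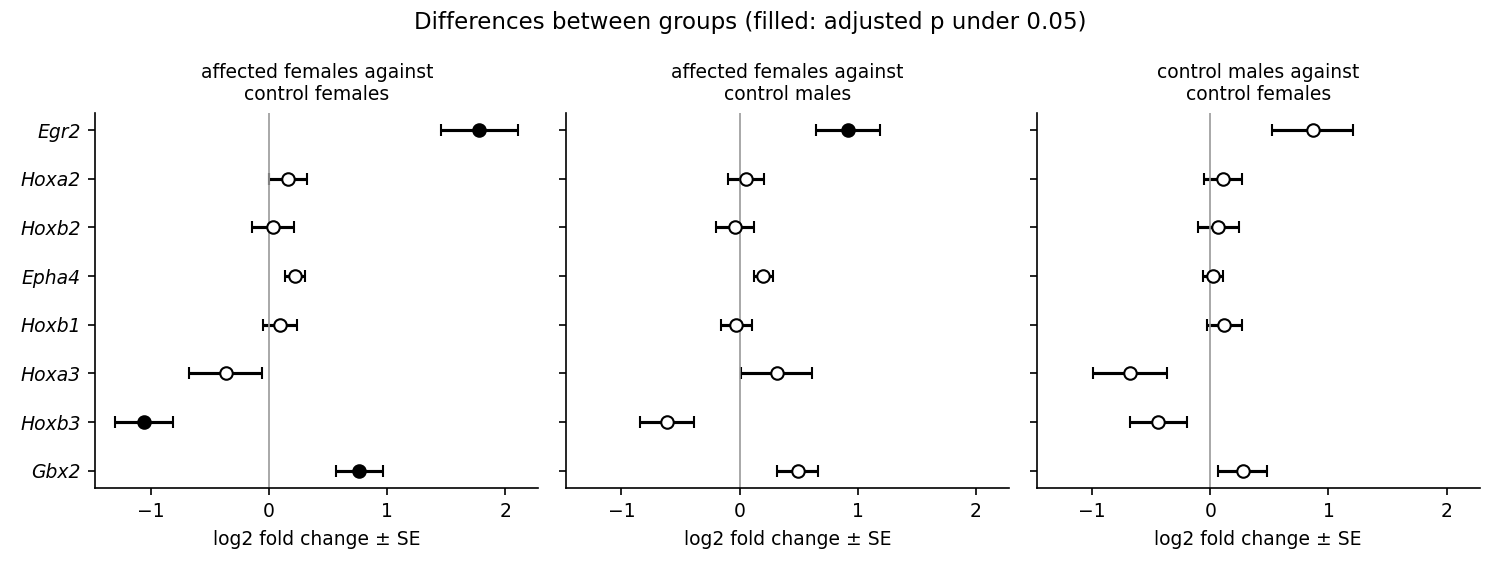
Log2 fold change (horizontal axes) of the 8 genes in the 3 comparisons, with bars of 1 SE from edgeR; filled points passed an adjusted p of 0.05. Egr2 and Gbx2 lie to the right and Hoxb3 to the left in affected females, and the points of Hoxa2, Hoxb2 and Hoxb1 lie near 0 in all 3 panels.

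Over all embryos, Egr2 tended to be higher where Hoxb3 was lower. Among affected females and among control males, the embryo with the most Hoxb3 had the least Egr2. Among control females this was not so: control female 2 had the most of both, at 3.39 CPM of Egr2 and 47.2 CPM of Hoxb3. Per length, Egr2 relative to Hoxb3 ranged from 0.351 to 1.09 in affected females, from 0.0931 to 0.412 in control males and from 0.0593 to 0.127 in control females. The highest ratio was that of affected female 3, and control male 4 lay above affected female 1. Over the 11 libraries the Pearson r of log2 CPM was -0.784 for Egr2 and Hoxb3, -0.839 for Gbx2 and Hoxb3 and 0.81 for Egr2 and Gbx2. With group means removed these were -0.42, -0.584 and 0.327, smaller in size each time.

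**Figure D3:**
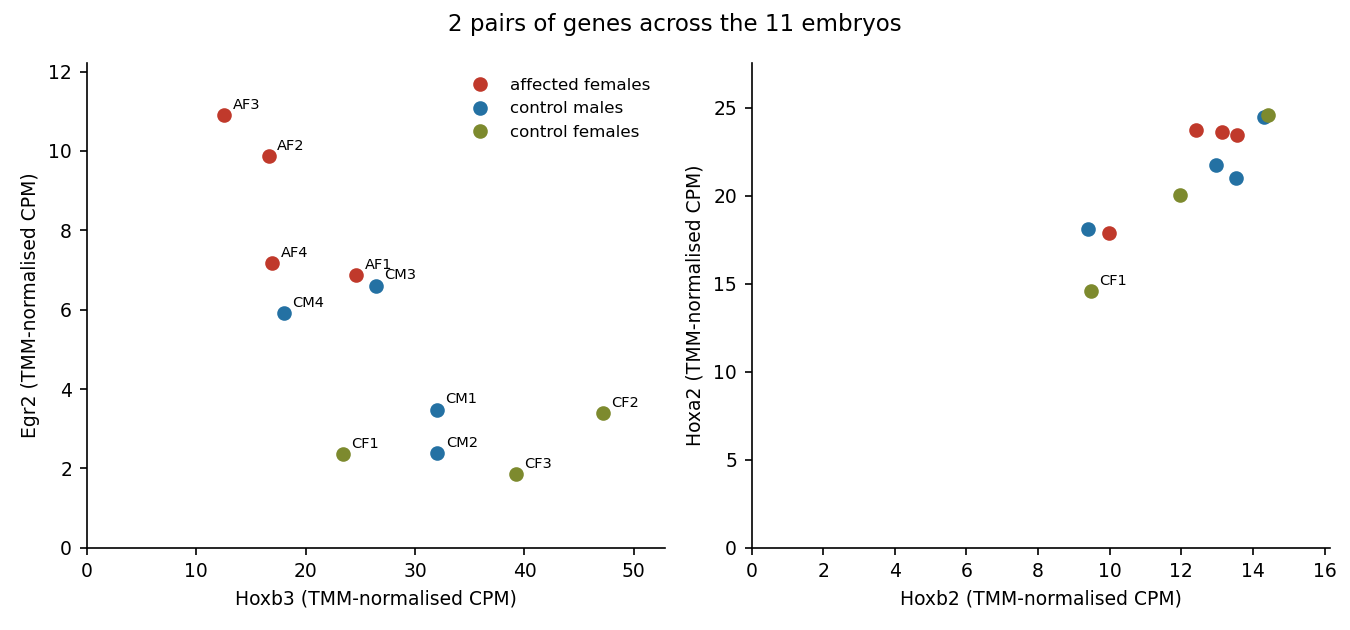
TMM-normalised CPM of Egr2 against Hoxb3 (left) and of Hoxa2 against Hoxb2 (right), with 1 point per embryo, for affected females (AF), control males (CM) and control females (CF). The affected females fill the upper left of the first panel, from 6.88 to 10.9 CPM of Egr2; in the second panel the groups are mixed along 1 line, with control female 1 lowest for Hoxa2.

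The genes whose log2 CPM was most like each of the 8 over the 11 libraries were listed for description. They were Efr3a (0.969), Vps25 and Ccdc92 for Egr2, Bcar3 (0.968), Bak1 and Zfp64 for Gbx2, and Pear1 (0.96), Reep4 and Thsd1 for Hoxb3. Mapk4 (0.923), Ep300 and Extl3 were nearest to Epha4, and Atpaf1 (0.845), Dzank1 and the paralog Hoxd3 (0.832) to Hoxa3. Hoxb1 had Mmut at 0.847 and nothing else above 0.703.

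Compared per length as RPKM, the order of levels was Epha4, Hoxa2, Hoxb2, Hoxb3, Hoxb1, Gbx2, Egr2 and Hoxa3 in affected females and in control males. Epha4 averaged 20.9 ± 1.40 RPKM, Hoxa2 13.2 ± 1.70 RPKM and Egr2 2.94 ± 0.671 RPKM (SD, n = 4) in affected females. In control females Hoxb3, at 9.84 ± 3.25 RPKM (SD, n = 3), ranked above Hoxb2 at 7.33 ± 1.52 RPKM, and Egr2 at 0.856 RPKM was level with Hoxa3 at 0.821 RPKM. Neighbours whose ranges overlap were Hoxb2 with Hoxb3, Hoxb3 with Hoxb1 and Gbx2 with Egr2 in affected females and control males, and Hoxa2 with Hoxb3, Hoxb3 with Hoxb2 and Egr2 with Hoxa3 in control females.

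The Hox genes behind paralog group 3 mark tissue farther back than the cut. Of 19 such genes of groups 4 to 9, 0 passed the filter and 4 had no count in any library. Together they had 66, 20, 14 and 6 counts in affected females 1 to 4, 2, 0, 2 and 2 counts in control males and 15, 20 and 4 counts in control females. A count of 0 allows up to 3 counts, or 0.31 CPM in control male 2, for counting error only. Most came from Hoxd4, with 32 counts in affected female 1, and Hoxb4, with 14 there. The libraries with the most posterior Hox counts in their group, affected female 1 and control female 2, were also those with the highest Hoxb3 in their group, at 24.6 and 47.2 CPM. Among the control males this was not so: control male 2, with 0 posterior Hox counts, had the highest Hoxb3 at 32.1 CPM. Nor did the order hold among the other control females. Control female 1, with 15 posterior Hox counts, had 23.4 CPM of Hoxb3, and control female 3, with 4, had 39.2 CPM. The part of the level of the cut in Hoxb3 was not tested. Without affected female 1 the Hoxb3 difference from control females was -1.26 and stayed called. That library had the highest Hoxb3 of its group, so leaving it out had to widen the difference and tells nothing about the cut.

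**Figure D4:**
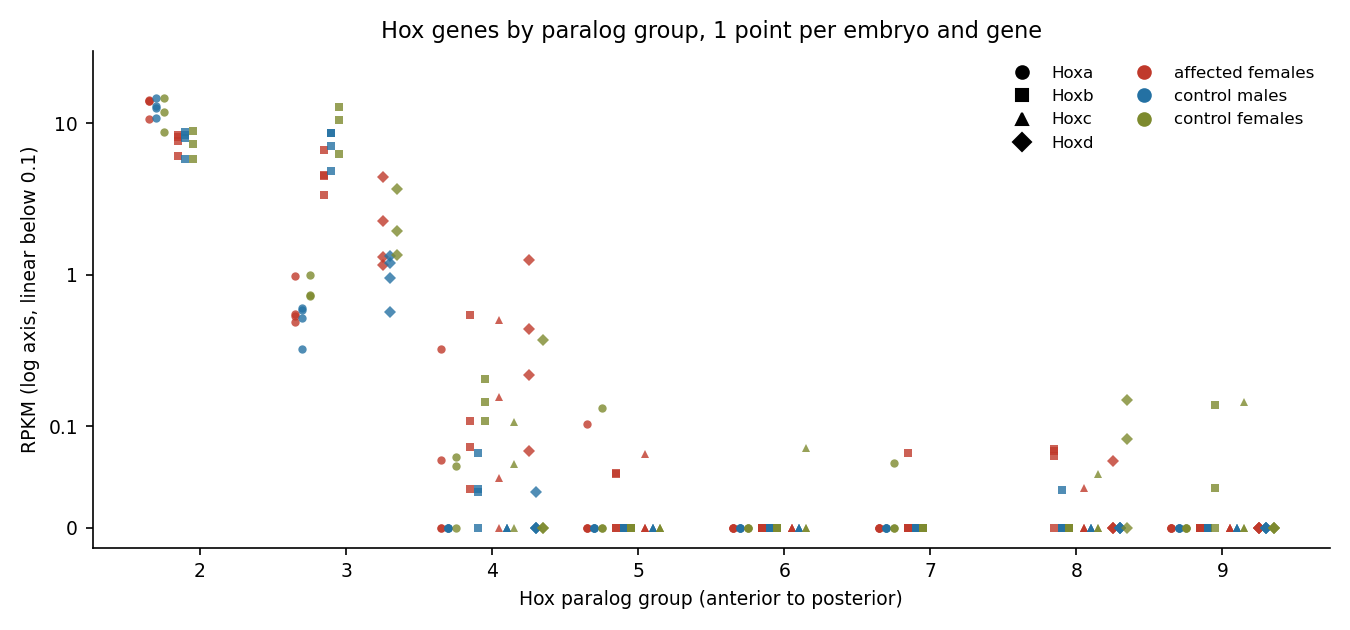
RPKM (log axis, linear below 0.1) of the Hox genes of paralog groups 2 to 9, with 1 point per embryo and gene; shape gives the cluster and colour the group of embryos. Levels are highest in group 2, where Hoxa2 and Hoxb2 lie. From group 4 backwards most points lie near 0, but Hoxd4 reaches 1.25 RPKM in affected female 1.

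The gene lists that follow are to be read against all tested genes, of which 13.0% rose and 15.0% fell against control females and 9.51% rose and 10.7% fell against control males. Without control female 1 and control male 4 the share called over all genes was itself larger, at 38.8% against control females and 40.9% against control males.

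Of 21 other hindbrain segmentation genes tested, 6 rose and 2 fell in affected against control females (edgeR), with a median log2 difference of 0.22. Fgf3, a signal from r4 to the ear, rose by 1.46 against control females (SE 0.36, adjusted p = 0.011, edgeR) and gave 0.82 against control males (adjusted p = 0.0621, edgeR). Affected females ranged from 2.69 to 2.98 CPM for Fgf3, control males from 0.724 to 2.17 CPM and control females from 0.636 to 1.58 CPM. Sp8, a zinc-finger factor, rose by 0.56 and 0.49. The 2 that fell, looked up after the values were seen, were Irx2 (-0.30) and Efnb3 (-0.39). Against control males 2 rose and 2 fell, a share near the 20.2% of all genes; without control female 1 and control male 4 there were 9 and 2, where 40.9% of all genes were called.

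Of 9 Hox cofactors, which bind DNA together with Hox proteins, Meis2 was called in affected females, at 138 ± 2.92 CPM against 97.7 ± 7.80 CPM in control females, 0.50 higher (SE 0.12, adjusted p = 0.00938, edgeR), and 0.48 higher than control males (adjusted p = 0.0124). Pbx3 rose by 0.26 against control males. Pbx4 gave -0.92 (adjusted p = 0.0572) against control females. Without control female 1 and control male 4, 3 cofactors were higher and 1 lower against control females, and 4 and 1 against control males, beside 38.8% and 40.9% of all genes called in that setting.

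The retinoic acid pathway sets the posterior borders of this region. Of 18 genes, 5 rose and 1 fell against control females, and 4 rose against control males (edgeR); without control female 1 and control male 4 these were 9 and 2, and 7 and 3, beside 38.8% and 40.9% of all genes called. Aldh1a2, the main enzyme that makes retinoic acid in the trunk mesoderm, averaged 4.52 ± 1.66 CPM in affected females against 1.31 ± 0.508 CPM for control males (SD, n = 4 each) and 1.49 ± 0.647 CPM for control females (SD, n = 3), a rise of 1.60 against control females (adjusted p = 0.00922, edgeR) and of 1.79 against control males (adjusted p = 0.00954, edgeR). Aldh1a3, an enzyme of the eye and face, rose by 0.74 and 0.61. Rarb, a receptor gene that retinoic acid induces, rose by 0.52 against control males and gave 0.28 against control females (adjusted p = 0.106).

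At the boundary with the midbrain, where Gbx2 acts, 5 of 19 genes rose and 2 fell against control females, and 3 rose and 4 fell against control males (edgeR). Cnpy1, known in fish as a regulator of Fgf signalling at this boundary, fell by 2.13 and 1.93 on the log2 scale, from 31.4 ± 6.89 CPM in control females (SD, n = 3) to 7.19 ± 2.51 CPM in affected females (SD, n = 4). Fgf15 fell by 0.66 and 0.56. Etv5, an Fgf target, rose by 0.70 and 0.60, and En1 rose by 0.73 against control females.

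Markers of some other cell types in or beside the brain also differed between groups. Of 9 endothelium genes, 0 rose and 1 fell against control females, and 0 were called against control males (edgeR). Of 8 erythroid genes, 0 were called in either comparison (edgeR). Of 11 neural crest genes, 8 rose against control females and 2 rose against control males (edgeR), with Sox10, the crest and glial factor, 1.10 and Ets1 0.94 higher in the first comparison. This list summed to 425 to 504 CPM in affected females, with 336 to 396 CPM for control males and 297 to 335 CPM for control females. Neural crest also expresses Egr2, Hoxa2, Hoxa3 and Epha4 in places, and its part in the results above was not tested.

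Early neuron genes went the other way: of 13, 12 fell against control females and 10 against control males (edgeR), with Nhlh1, a factor of newborn neurons, at -2.16 and -2.12. Summed, they reached 183 to 224 CPM in affected females, 289 to 499 CPM for control males and 229 to 496 CPM for control females. Of 14 otic and surface ectoderm genes, 8 rose and 1 fell, and 7 rose and 1 fell. Grhl2, an epithelial factor, was 0.82 and 0.64 higher; the list summed to 350 to 398 CPM, 235 to 303 CPM and 220 to 324 CPM in affected females, control males and control females. Of 14 mesoderm genes, 2 rose and 1 fell, and 2 rose, with Meox1, a somite gene, at 22.0, 11.5, 11.8 and 9.11 CPM in affected females and at 1.24 to 8.46 CPM in all controls. Meox1 was highest in affected female 1, the library with the most posterior Hox counts. Their part in the levels of the 8 genes was not tested.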

How the data were processed

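RNA of 11 embryonic brains was sequenced (polyadenylated RNA, TruSeq, Illumina HiSeq, per the labels' protocols), 1 library per embryo. The authors deposited whole-number read counts per Entrez gene with gene lengths, made with featureCounts on mm10 per the submitters' processing notes; no source used here gives the aligner, versions, strand setting or annotation release. Totals were 8211942 to 11218682 counts. Groups and replicate numbers came from the titles. Symbols and positions came from RefSeq GRCm38.p6 (25275 of 27179 identifiers matched), which has the coordinates of mm10.

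Genes kept by filterByExpr (14542) were scaled by TMM and fitted with edgeR 4.0.16 (R 4.3.3; quasi-likelihood, group only, all 11 libraries), with Benjamini-Hochberg adjustment and a threshold of 0.05. SE is the log2 fold change divided by the square root of F. Log2 CPM took a prior count of 2 (biological coefficient of variation 11.94%), and RPKM is TMM-scaled CPM per kilobase of the deposited length. The alternatives were other filters and scaling, DESeq2 1.42.0, limma 3.58.1 voom with sample weights and only the groups compared. They also took the replicate number as a block, and left out each library in turn. Leaving out control female 1 with control male 4 was chosen after seeing the data and is counted among the 19. The fit was tested on simulated counts with 200 changed genes. It recovered 40.3% of 1.5-fold changes in affected against control females, 60.0% against control males and 46.6% between the controls. For 2-fold changes these were 85.7%, 91.0% and 74.2%. Of the genes called, 6.3%, 3.5% and 9.6% were false, so small differences can go uncalled. Labels do not say whether embryos shared a litter, so p-values measure the spread between these embryos. No library pair agreed within sampling noise (chi-square per degree of freedom 2.77 to 32.4 over genes with at least 25 counts).

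The members, the gene lists and the rules were chosen with earlier results of these data known. Named genes were the 8 members, up to 4 genes per list with the smallest p in any comparison, the 3 genes most like each member, and Trp53, Bcl2l11 and Ccng1; Egr1, Jun, Ier2, Fosl2, Atf3, Dusp1, Hoxd3, Irx2, Efnb3, Hoxd4 and Hoxb4 were chosen after their values were seen. Not every gene the rule took is named, and some list genes are not reported here. Promoter windows are the 250 bases before each RefSeq start, shown without bases of exons annotated by GENCODE. The Hoxb1 stretch shown ends at 96365751, just past the RefSeq gene start of 96365746. Motif positions count from the start site listed for each window. Hoxb2 and Hoxb3 have no window here.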

Additional observations from a re-analysis of the deposited data

Results flagged for a closer look

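In groups of 4 embryos, 10 of 112 gene and group combinations had 1 embryo far from the other three, by a gap above Dixon's critical value for 4 samples; chance gives about 1 in 20. Among the hindbrain genes these were Hoxa2 in affected female 3, at 17.9 CPM below the others, and Hoxa3 in affected female 1, at 2.49 CPM above the others. Affected female 3 also stood apart for Sp8 (54.4 CPM, high) and Tbx18 (5.97 CPM, low). Affected female 4 stood apart for Cnpy1 (10.9 CPM, high), Dcx (13.4 CPM, high) and Nkx2-1 (7.36 CPM, high), and affected female 1 for Sox10 (33.5 CPM, high). Control male 2 was high for the neuron genes Nhlh2 (14.8 CPM) and Dcx (45.0 CPM).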

How the results depend on the processing

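Egr2 and Hoxb3 in affected against control females kept direction and call in 19 of 19 alternatives, Gbx2 in 18 of 19, and Egr2 against control males in 14 of 19. The number of the 8 genes called against control males, 1 with all libraries, was 2 with no filter, 2 with DESeq2 and 2 with only the compared groups. It was 4 with limma voom and 3 without control female 1 and control male 4. The shares of all genes called in these settings were, in order, 20.2%, 14.3%, 22.9%, 20.4%, 44.0% and 40.9%. Between the control groups the number was 2 with limma voom (Egr2 and Hoxb3), beside 10.8% of all genes. With 1 library left out, the 8 genes gave 2 to 4 calls against control females (2 without control female 2), 0 to 3 against control males (3 without control male 4, and 0 without any 1 of affected females 2, 3 and 4 or control males 1 and 2) and 0 to 0 between the controls. Over all genes, left-out libraries gave 1663 to 4957, 361 to 5140 and 18 to 35 calls; the fewest came without control female 3 and without affected female 3. Limma voom called 7639, 6397 and 1569 genes, DESeq2 called 43 between the controls, and 6014 were called against control males without control female 1 and control male 4. The causes were not tested. Replicate numbers do not appear to pair the embryos: same-numbered libraries had correlations of deviations from -0.14 to 0.18, and 2 of 11 libraries correlated best with their own number. With the replicate block the 8 genes gave 3, 1 and 0 calls and all genes 2875, 3418 and 21.

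Differences near 0 changed sign, with no call. With limma voom these were Hoxa2 (-0.039 against control females, -0.13 against control males), Hoxb2 (-0.14 against control females) and Epha4 (-0.031 between the controls). Without control female 1 and control male 4 they were Hoxa2 (-0.0027 against control females, -0.052 between the controls), Hoxb2 (-0.10, 0.0031 and -0.10 in the 3 comparisons) and Epha4 (-0.024 between the controls). Over left-out libraries Hoxa2 ran from -0.0060 to 0.35, -0.015 to 0.15 and -0.062 to 0.29 in the 3 comparisons, Hoxb2 from -0.10 to 0.19, -0.15 to 0.053 and -0.065 to 0.22, Hoxb1 from -0.079 to 0.057 against control males, and Epha4 from -0.027 to 0.061 between the controls. Counts of 8 to 25 for Hoxa3 limit what could be detected for that gene.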

Other observations

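Other regions of the brain, described here for context, did not move as a block. Of 11 forebrain genes, 3 rose and 2 fell in affected against control females, and 4 rose and 2 fell against control males (edgeR). Hesx1, a factor of the anterior forebrain and pituitary, rose by 1.98 and 1.64 on the log2 scale, Six6, an eye and hypothalamus factor, rose by 0.73 and 0.46, and Nkx2-1, a factor of the ventral forebrain, fell by 1.31 and 1.11. Of 9 neural progenitor genes, 2 rose and 2 fell against control females; Fabp7, a radial glia gene, fell by 1.68 and by 1.32 against control males. Erythroid genes differed between libraries: they summed to 557 CPM in the lowest library, a control female, and to 4379 CPM in the highest, also a control female. Hbb-bh1, an embryonic globin, was 230 CPM in control female 1, which had the lowest Hoxa2 level, and 1883 and 1822 CPM in control females 2 and 3.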
